A study of Homo sapiens with 27 samples.

Results

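Transcripts that GENCODE release 29 types as nonsense_mediated_decay (NMD transcripts below) were followed across 9 established human cell lines. All members were taken by that annotated type alone, with no use of their measured level. They numbered 13502 of the 176241 transcripts quantified, or of the 159887 that matched the annotation, and came from 6752 genes, 6749 of them protein coding.

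Poly-A RNA was sequenced from 3 libraries per line, 27 in all. SK-Mel 24 and SK-Mel 28 (melanoma, both labelled skin) were grown in EMEM with 15% and 10% serum. U251 (glioblastoma, labelled brain), Caco2 (colorectal adenocarcinoma, labelled colon) and HepG2 (liver tumour) were grown in EMEM with 10% serum. A549 (lung adenocarcinoma) and BJ (skin fibroblasts, labelled epithelial) were in DMEM, and U2-OS (osteosarcoma, labelled bone) and RT4 (bladder tumour, labelled kidney) in McCoy medium, all with 10% serum. All media held streptomycin, no line was treated otherwise, and between lines in different media, line and medium cannot be told apart. The series design calls the 3 libraries of a line biological replicates but does not say how separate the cultures were, so each p-value speaks only of library-to-library spread, which may be technical.

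Nonsense-mediated decay is a cytoplasmic surveillance pathway that degrades messenger RNA whose stop codon lies well upstream of the last exon-exon junction. The exon junction complex left at each splice site, the UPF proteins and the SMG1 kinase mark such a transcript when the ribosome stops too early. Many genes for splicing regulators and ribosomal proteins make such transcripts through poison exons that carry an early stop, and lower their own protein output that way. The level of an NMD transcript in untreated cells is therefore what is left after decay, and production and decay cannot be told apart in these data.

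The annotated type itself rests on the place of the stop codon, so its place describes the annotation and is not a result of these libraries. The stop codon lay at least 50 bases before the last junction in 13372 of 13502 (99.0%), with a median of 297 bases. Their median length was 941 bases, with 7 exons, against 1535 bases for the 78825 protein_coding transcripts. A total of 3590 (26.6%) were annotated with an incomplete 5′ end, against 9.75% of protein_coding transcripts, and 2745 (20.3%) had the highest transcript support level (1), against 39.7%.

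The stop codons fell in 4 places relative to the protein_coding transcripts of the same gene. In 583 members (4.32%) the stop was that of a principal coding transcript (by the APPRIS tag), with the last junction a median of 160 bases after it. Whether the principal transcript lacks the intron at that junction was not checked. In 756 (5.60%) the stop was that of another coding transcript, and in 7246 (53.7%) it was a different stop inside an exon that coding transcripts also use. In 4917 (36.4%) the stop lay in sequence that no coding transcript of the gene includes, and in 3523 of these the whole exon was absent from them. The sequences of 7 members that the results turn on are shown here around the stop codon, which is in capitals, as 30-base windows (5′ to 3′, transcript strand, GENCODE 29 transcripts on GRCh38). They were chosen to show the principal-stop, coding-exon and poison-exon forms.
B2M-212: aagtgggatcgagacatgTAAgcagcatca
PDIA3 ENST00000434494: agtctcctccagcctcatTGAaactctttt
RPL13-210: aggccaacgtgcagcggcTGAaggagtacc
RPL22L1-204: atttctacgggagaaggtTAAagtcaatgg
SRSF6 ENST00000483871: acagcagccttttgccatTAGacgcagggt
TRA2B-206: ttgaagctcaggaataagTGAagctgaaat
RBM39-216: agtgtgaactgtcaatcaTAAggatgagaa

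B2M-212 keeps the principal stop, with the last junction 112 bases further on. PDIA3 ENST00000434494, SRSF6 ENST00000483871 and RBM39-216 stop inside an exon that no coding transcript includes, of 175, 268 and 73 bases. RPL13-210 and RPL22L1-204 stop inside an exon of a coding transcript, 125 and 96 bases before the last junction. TRA2B-206 stops in exon 2, a 276-base exon, at a stop that another annotated coding transcript of the gene also uses.

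Libraries held 15597117 to 32583547 estimated counts, and the deposited tables give TPM, an abundance scaled by transcript length and library total. Markers fitted most line labels: PMEL averaged 8877 TPM in SK-Mel 28, SOX10 252 in SK-Mel 24, ALB 7110 in HepG2, VIL1 333 in Caco2, UPK1B 129 in RT4 and COL1A2 7215 in BJ. PMEL was low in the other melanoma line, SK-Mel 24, at 3.10 TPM. In U251 the glial markers FABP7 and GFAP were at 125 and 3.11 TPM, against 109.7 and 8.602 TPM in SK-Mel 24. The lung markers SFTPB, SFTPC and NKX2-1 were at most 0.422 TPM in A549. Of the bone markers in U2-OS, RUNX2 was at 12.2 TPM, and SP7 and BGLAP were at most 0.202 TPM. HepG2 libraries stood apart. Mitochondrial genes took 33.3% to 71.6% of their counts, against 0.955% to 5.88% in the other lines. The median fragment length implied by effective lengths was 182 to 196 bases there and 223 to 252 elsewhere, and transcripts averaged 2279 to 2421 bases when weighted by counts, against 2668 to 3545. The share of counts on 5′-incomplete transcripts outside the NMD type was 3.35% to 4.26% in HepG2, 1.85% to 2.43% in Caco2, 1.75% to 2.01% in RT4, 1.56% to 1.88% in BJ and 1.39% to 1.65% in the other 5 lines. HepG2 is therefore given apart throughout.

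NMD transcripts held about 3% of library TPM, mitochondrial genes set aside. The share was 3.66% ± 0.0690 (SD, n = 3) in Caco2 and 3.37% ± 0.166 in RT4, and these 2 lines stood above the other lines besides HepG2, with no overlap between RT4 at its lowest (3.25%) and any library of those. SK-Mel 24 followed at 3.11% ± 0.0823, then U2-OS at 3.07% ± 0.106, U251 at 2.95% ± 0.170, SK-Mel 28 at 2.83% ± 0.0708, BJ at 2.75% ± 0.106 and A549 at 2.65% ± 0.0704. Neighbours in this order from SK-Mel 24 down overlapped in their libraries. HepG2 held 3.46% ± 0.152, and its range overlapped those of both Caco2 and RT4. As a share of estimated counts, which does not divide by transcript length, NMD transcripts took 3.23% ± 0.0878 in Caco2, 2.82% ± 0.0835 in RT4 and 2.10% ± 0.0580 in BJ, the lowest. RT4 did not stand apart by counts, as its lowest library (2.76%) lay below the highest of U2-OS (2.85%). HepG2 was highest by this measure at 3.36% ± 0.0201, with no overlap with Caco2. These sums over members are a description and were not tested.

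Members annotated with a complete 5′ end gave the same leading lines, with 2.96% ± 0.140 in Caco2 and 2.79% ± 0.140 in RT4, and A549 had the lowest mean of the 8 lines at 2.21% ± 0.0602, overlapping BJ. HepG2 changed place. Without 5′-incomplete members it fell to 1.79% ± 0.158, below every library of the other 8 lines (2.10% or more). In HepG2, 5′-incomplete members held 1.56% to 1.82% of library TPM, against 0.423% to 0.750% in the other lines.

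**Figure D1:**
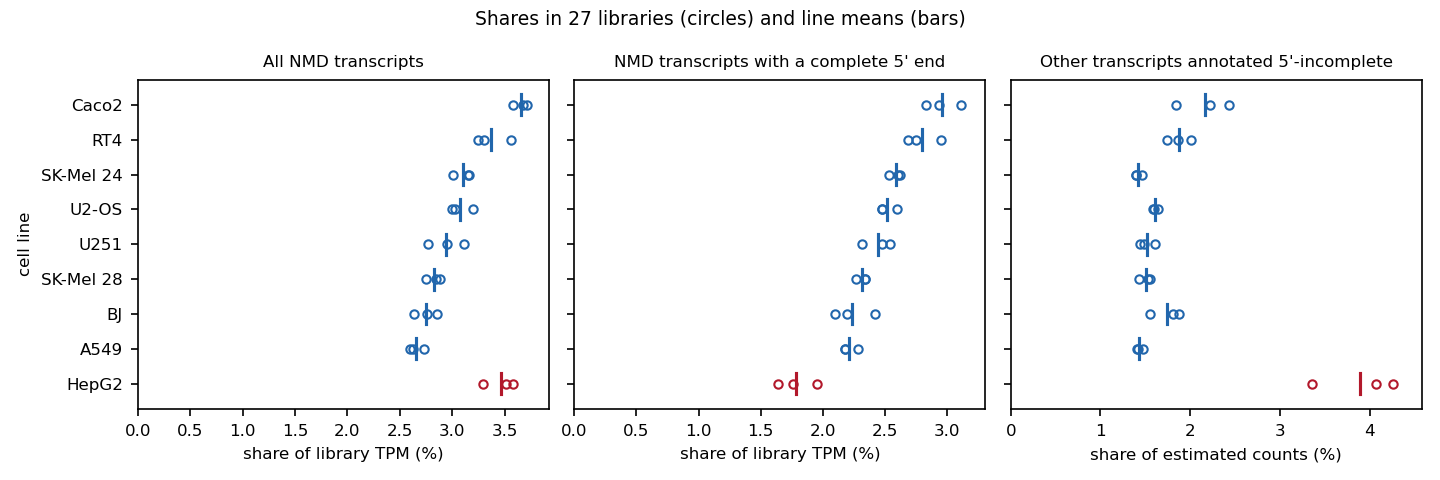
Share of each of the 27 libraries (circles) and line means (bars) for all NMD transcripts (% of TPM), NMD transcripts with a complete 5′ end (% of TPM) and other transcripts annotated 5′-incomplete (% of estimated counts). Caco2 and RT4 lead the 8 lines in the first 2 panels, while HepG2, in red, is high in the first, lowest in the second and highest in the third.

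Splitting the share by the place of the stop showed different line orders for different classes. Members with the principal stop took 0.612% ± 0.0554 of library TPM in RT4 and 0.464% ± 0.0310 in SK-Mel 24, against 0.345% ± 0.0165 in Caco2 and 0.297% ± 0.0104 in A549. In that line order B2M-212, of this class, averaged 1853, 1581, 180 and 386 TPM. HNRNPA1-205, also of this class, averaged 780, 535, 974 and 620 TPM. The line order of the class without B2M-212 was not examined. Members that stop outside coding exons were highest in Caco2, at 1.00% ± 0.0376, and lowest in BJ, at 0.639% ± 0.0334. Members that stop inside a coding exon formed the bulk in every line, from 1.52% ± 0.0412 in A549 to 2.16% ± 0.00974 in Caco2, and 2.32% ± 0.133 in HepG2. Over the 8 lines the 4 classes held 13.4%, 4.79%, 55.9% and 25.9% of all NMD transcript TPM, in the order in which they were introduced. Members with the principal stop were 4.32% of the list, so this class held more of the TPM than of the members. A few abundant members weigh in this, as 3 of the 12 members of highest mean TPM were of this class. Over the 8 lines B2M-212 averaged 949 TPM and HNRNPA1-205 660 TPM.

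**Figure D2:**
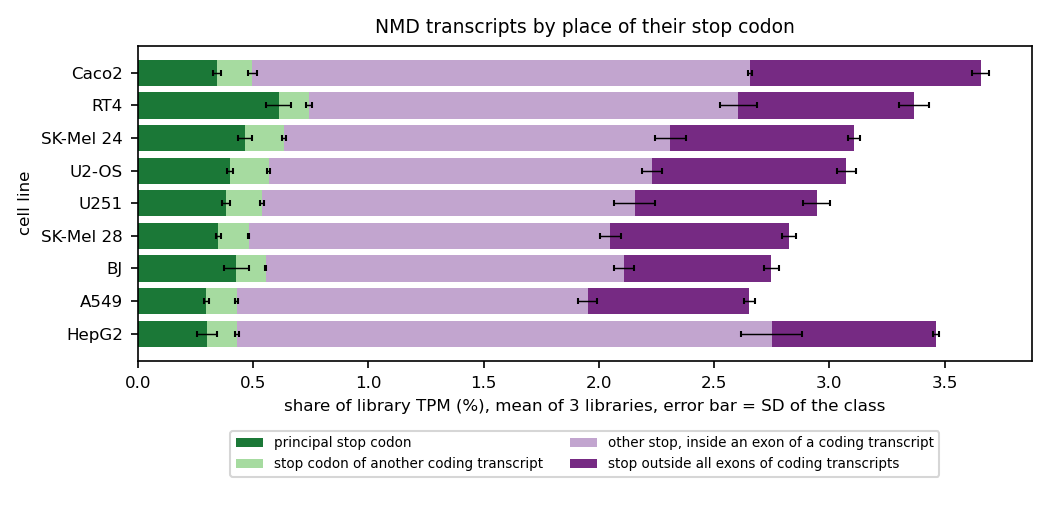
Share of library TPM (%, horizontal axis) of NMD transcripts by place of their stop codon, as stacked means of 3 libraries per line with the SD of each class as error bar. RT4 has the widest principal-stop segment (0.612%) and Caco2 the widest segment of stops outside coding exons (1.00%).

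The signal was unevenly spread over the members. Counts were at 0 in all 27 libraries for 1131 members, 4850 reached a line mean of 1 TPM in at least 1 line and 413 did so in all 9. The 12 highest held 22.4% of NMD transcript TPM over the 8 lines, and the 100 highest held 46.9%. These 12 came from 9 genes: B2M, RPS3, HNRNPA1, RACK1, PDIA3, RPL37A, ITM2B, COX6C and RPL13. Of the 12, 3 had support level 1, and 3 were called by the usage test described below (RACK1-224, COX6C-207 and RPL13-210).

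B2M encodes the light chain of MHC class I, and its NMD transcript B2M-212 (chr15:44711509-44718851, plus strand, 5 exons) ran from 163 to 2314 TPM over the 24 libraries, with a median of 773. Its share of B2M stayed between 31.5% and 55.0%, with a median of 41.8%. A second one, B2M-201, stops in exon 2 after 57 codons and took 22.2% to 30.2%. The level thus varied widely while the B2M-212 shares of all 8 lines overlapped. For B2M-201 the Caco2 libraries (24.2% to 26.7%) and the BJ libraries (22.2% to 27.2%) lay below those of SK-Mel 24 (27.6% to 28.1%). Neither transcript passed the usage test described below (adjusted p 0.942 and 0.784, edgeR).

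PDIA3 encodes a disulfide isomerase of the endoplasmic reticulum. PDIA3 ENST00000434494 (chr15:43746453-43771545, plus strand) carries an exon of 175 bases at chr15:43751584-43751758 with an early stop, and took 80.8% to 91.4% of PDIA3 TPM in the 24 libraries. It read 314 to 714 TPM. By the estimated division of reads, this NMD transcript thus held most of the gene's TPM in every library of the 8 lines. Its support level is 2, and reads over the junctions of its early-stop exon were not examined.

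HNRNPA1-205 belongs to an abundant RNA-binding protein that regulates splicing. It read 293 to 1072 TPM, and its share of HNRNPA1 was 34.5% to 42.4%, the line means running from 36.9% ± 0.982 in U251 to 39.9% ± 1.77 in A549, with no call (adjusted p 0.850, edgeR). In HepG2 the same share was 4.09%, 1.38% and 2.14% in the 3 libraries. RACK1-224, from a ribosome-bound scaffold protein, was highest in Caco2 at 25.2%, 23.7% and 23.5% of RACK1 and lowest by line mean in SK-Mel 28 at 9.16%, 9.04% and 14.6%, with no overlap (adjusted p 0.0220, edgeR). It was not called with the 5′-incomplete covariate described below. RPS3 (a small-subunit ribosomal protein), HNRNPA1, RPL13 and RPL37A have many processed copies in the genome, so the split of reads among their transcripts is uncertain.

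For a typical gene the NMD share was small. Among 2193 genes with an NMD transcript and a summed level of at least 5 TPM in every line, the median share of gene TPM was 2.28% ± 0.404 in Caco2, 2.16% ± 0.149 in U2-OS, 2.14% ± 0.176 in U251 and 1.95% ± 0.0255 in SK-Mel 24. It was 1.74% ± 0.0802 in SK-Mel 28, 1.62% ± 0.0671 in A549, 1.62% ± 0.390 in RT4 and 1.51% ± 0.160 in BJ. RT4, high by library share, was near the bottom by this measure. The 12 most abundant members held 28.3% ± 2.53 of NMD TPM in RT4 and 28.4% ± 2.30 in Caco2, against 16.7% ± 1.06 in U2-OS. In HepG2 the median fell to 0.213% ± 0.186. HepG2 had both the most genes with no NMD signal (911 to 1113, against 360 to 626) and the most with over 50% of their TPM in NMD transcripts (191 ± 23.6 per library, against 72 to 120).

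A usage test asked which members took a different part of their gene among the 8 lines other than HepG2. Estimated counts were fitted with edgeR's quasi-likelihood F test against the gene total, over all 46644 transcripts of sufficient count, and a call needed a Benjamini-Hochberg adjusted p under 0.05 and a 2-fold difference between the highest and lowest line. Of 4202 NMD transcripts that passed the count filter (31.1% of the members), 609 (14.5%) were called, against 18.1% of all transcripts tested. The shares called among protein_coding, processed_transcript and retained_intron transcripts were 16.8%, 22.8% and 22.9%. By place of the stop, 60 members with the principal stop were called (26.4% of those tested), 42 of 266 with another coding stop (15.8%), 271 of 2330 inside coding exons (11.6%) and 236 of 1379 outside them (17.1%). In the same order, 43.4%, 13.1%, 23.8% and 30.8% of the members of each class were annotated 5′-incomplete. With the 5′-incomplete covariate described below, 35, 26, 179 and 155 were called, against 11.8% of all transcripts. With NMD transcripts summed within each gene, 622 of 2951 genes (21.1%) were called, against 17.9% of all sums over genes and types. Summed retained_intron transcripts were called in 37.0%, summed processed_transcript ones in 29.5% and summed protein_coding transcripts in 2.48%. For the protein_coding sums the median fold was 1.06, and 1482 of 8315 passed the adjusted p while 206 were called. The 2-fold that a call needs was thus mostly out of reach for them, which lowers the 17.9%.

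**Figure D3:**
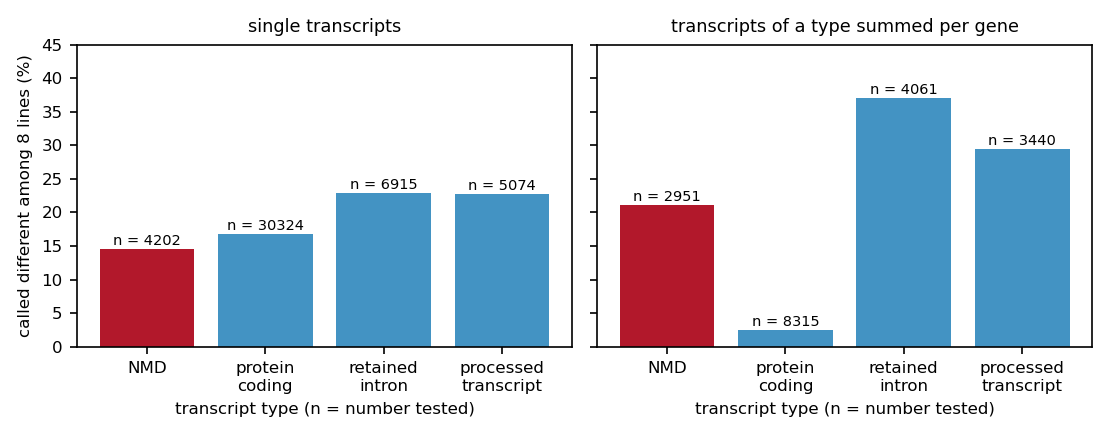
Percent of tested rows (vertical axis) called different among 8 lines, by transcript type, for single transcripts (left) and for transcripts of a type summed within each gene (right). NMD transcripts, in red, stand at 14.5% as single transcripts, and at 21.1% when summed, between protein_coding (2.48%) and the other types. The protein_coding sums had a median fold of 1.06, below the 2-fold that a call needs.

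Among the 622 genes called, the highest share was in Caco2 for 223 (35.9%), in U2-OS for 105 (16.9%) and in A549 for 29 (4.66%). Over all 2951 genes tested, called or not, Caco2 was highest for 25.8%, U2-OS for 18.2% and A549 for 5.35%. Among the called genes the lowest share was in SK-Mel 28 for 121, in RT4 for 92, in BJ for 88 and in A549 for 87, and the same count was not made over all genes tested. The share of 5′-incomplete transcripts outside the NMD type was also highest in Caco2 among these lines. With that share of each library as a covariate, 401 genes were called (11.0% of all sums), 371 of them among the 622, and Caco2 was highest for 23.9% and U2-OS for 22.9%. In a fit without Caco2, RT4 and BJ, 339 genes were called (8.88% of all sums), 255 of them shared. Both fits were added after seeing the data, and the part of this library measure in any single call was not tested.

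No member rose above every other line by the stricter rule of 7 one-sided tests and a 2-fold margin, where 0 of 4202 NMD transcripts and 0.0236% of all transcripts passed in edgeR. At an unadjusted p under 0.05, 91 NMD transcripts met the same margin in the high direction and 331 in the low direction. The same counts were not made over all transcripts, so these have no background to be read against. For the lowest line the rule called 11 NMD transcripts, or 0.262%, against 0.641% of all transcripts. That count ran from 8 to 28 when single libraries were left out, with 28 without the third Caco2 library, and 1 line-high transcript appeared without the second Caco2 library. The 11 are named here although the rule for named genes did not ask for them. HNRNPH1 ENST00000510678, PEX19-205 and CARD8-206 were low in SK-Mel 28, VAT1 ENST00000592388 and ESS2 ENST00000434568 in U2-OS, ZNF655-206 and FMO5-205 in A549, KIF21A-206 and TCAIM-204 in Caco2, PLEKHM1-207 in BJ, and LETM2-206 in RT4. VAT1 ENST00000592388, of a vesicle membrane protein, was at 0% of VAT1 in all 3 U2-OS libraries and at 3.49% to 20.3% in the other 7 lines, with no overlap. TCAIM-204, from a mitochondrial protein gene, took 12.2%, 7.36% and 9.76% of TCAIM in Caco2 and 24.0% to 55.3% elsewhere, again with no overlap. ESS2 ENST00000434568, from a spliceosome-associated factor, took 15.8%, 22.0% and 13.2% of ESS2 in U2-OS and 24.9% to 51.0% in the other 7 lines, also with no overlap.

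Among 2466 genes of at least 10 TPM in each of the 8 lines, the spread between the highest and lowest line mean of the NMD share had a median of 4.10 percentage points. It exceeded 10 points in 669 genes and 20 points in 230, of which 100 were called. The 12 genes with the widest spread were COX6C, RPL22L1, LONP2, RINT1, TMEM237, UGGT1, AREL1, POLR2J3, ERO1A, CBWD2, PCNX4 and NOL8. The test called 10 of them, all except UGGT1 and ERO1A, and 6 of the 12 were highest in Caco2. Both the 12 and the 230 were picked by their spread in the same libraries. Calls among them thus largely follow from the choice and are no separate support. In the fit without Caco2, RT4 and BJ, 4 of the 12 were called.

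COX6C (chr8:99873200-99894062, minus strand), a subunit of cytochrome c oxidase, had the widest spread. Its NMD transcripts took 22.3%, 26.6% and 26.5% of COX6C TPM in RT4, 59.5%, 51.7% and 58.9% in U2-OS, and 73.1% to 91.8% in the other 6 lines. RT4 lay below U2-OS and U2-OS below all others, with no overlap (adjusted p 1.13e-10 over 8 lines, edgeR). COX6C-207, which keeps the principal stop, made up nearly all of it. Total COX6C was at 886 TPM in RT4, 509 in U2-OS and 310 to 424 elsewhere, so the lines with the most COX6C had the lowest NMD share. HepG2 lay apart at 50.7%, 50.1% and 66.0%.

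RPL22L1 (chr3:170864875-170870483, minus strand), a paralogue of ribosomal protein RPL22, split the lines into clear groups. Its NMD transcripts took 62.0%, 63.5% and 62.4% in SK-Mel 28 and 82.1%, 48.7% and 69.2% in Caco2. All other libraries of the 8 lines were between 3.54% and 21.9%, with SK-Mel 24 lowest at 4.06% ± 0.718 (adjusted p 5.66e-08, 16.3-fold by counts, edgeR). The 2 melanoma lines were thus far apart. HepG2, at 66.5%, 54.1% and 60.1%, was in the range of the high lines. Total RPL22L1 was 47.2 TPM in SK-Mel 28 and 599 TPM in SK-Mel 24, but 248.5 TPM in Caco2.

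LONP2, a peroxisomal protease, stood out in RT4 at 76.7%, 81.9% and 80.6%, against 9.66% to 38.1% in the other 7 lines (adjusted p 0.00101, edgeR). TMEM237, a protein of the cilium's transition zone, was low in U251 at 31.5%, 14.5% and 15.1%, and between 55.5% and 80.7% in SK-Mel 24, SK-Mel 28, U2-OS, BJ and RT4. Caco2 overlapped both ranges for TMEM237, at 28.85%, 28.98% and 68.8%. POLR2J3 and CBWD2 belong to families of near-identical copies, so their shares are uncertain. POLR2J3 ranged from 6.19% to 85.5%, with 17.4%, 67.8% and 43.8% within RT4.

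For the other genes with the widest spread, libraries of the same line disagreed. RINT1, a vesicle tethering factor, was at 9.51% or below in 15 libraries of 5 lines, but at 56.4%, 65.7% and 46.0% in Caco2, 63.6%, 33.7% and 11.0% in RT4, and 23.1%, 27.6% and 23.7% in BJ. AREL1, a ubiquitin ligase, read 68.0%, 64.9% and 26.0% in Caco2, 64.9%, 15.7% and 26.9% in RT4, and 2.43%, 45.8% and 39.2% in BJ. UGGT1, a glucosyltransferase of glycoprotein quality control, ran the other way, at 0.820%, 0.855% and 29.9% in Caco2, 0.930%, 28.9% and 18.6% in RT4, and 34.3%, 1.87% and 3.54% in BJ. ERO1A, an oxidase of the endoplasmic reticulum, followed UGGT1 with 0.431%, 0.749% and 28.8% in Caco2. The share of 5′-incomplete transcripts in the same libraries was 2.22%, 2.43% and 1.85% in Caco2, 2.01%, 1.86% and 1.75% in RT4, and 1.56%, 1.88% and 1.804% in BJ. In Caco2 and BJ, the library with the lowest 5′-incomplete share had the lowest AREL1 share and the highest UGGT1 share. RT4 did not follow that order, as its library with the lowest 5′-incomplete share (1.75%) was intermediate for both genes. Whether that measure accounts for these shares was not tested. With that share as a covariate AREL1 and NOL8 were no longer called (adjusted p 0.215 and 0.109), UGGT1 was still not called (0.136), and ERO1A was (0.0235). The remaining 8 of the 12 genes were called in both fits.

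**Figure D4:**
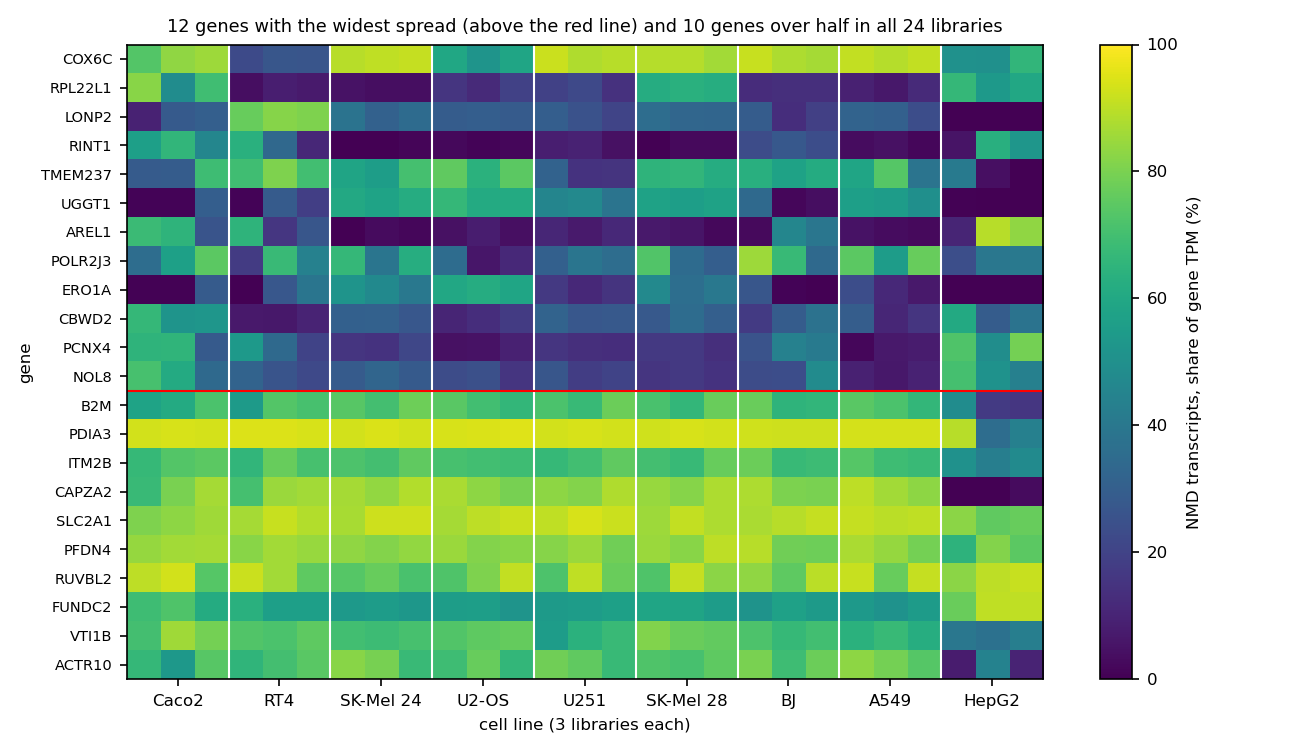
NMD transcripts as a share of gene TPM (colour, %) in each of 27 libraries (columns, 3 per line) for the 12 genes with the widest spread among 8 lines and the 10 most abundant genes over 50% in all 24 libraries of those lines. COX6C is dark in RT4 (22.3% to 26.6%), RPL22L1 bright in Caco2, SK-Mel 28 and HepG2, and every cell of the lower block outside HepG2 lies above 50%.

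At the other extreme, NMD transcripts made up over 50% of 35 genes in every one of the 24 libraries. The 10 most abundant were B2M, PDIA3, ITM2B, CAPZA2, SLC2A1, PFDN4, RUVBL2, FUNDC2, VTI1B and ACTR10, and none of these 10 was called. A share above 50% in every library can hardly differ 2-fold, so the fold that a call needs was nearly out of reach by the choice of these genes. VTI1B (adjusted p 0.000791, 1.99-fold), PDIA3 (0.00853), FUNDC2 (0.0231) and SLC2A1 (0.0341) passed the adjusted p of edgeR and missed only the fold. Line means ran from 83.2% to 92.1% for SLC2A1, the glucose transporter GLUT1, from 78.1% to 86.4% for CAPZA2, an actin capping subunit, and from 81.8% to 85.7% for PFDN4, a chaperone subunit. ITM2B, a type II membrane protein, stayed between 69.9% ± 0.976 and 72.6% ± 2.72 although the gene's level ran from 159 to 902 TPM. RUVBL2, an ATPase of chromatin remodelling complexes, reached 71.5% to 93.2%. In HepG2, 13 of the 35 were below 50% by line mean.

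Genes of selected families and pathways were described by lists, against 21.1% called and a median share of 2.59% over all genes. Among SR proteins, which promote exon inclusion, 4 of 14 genes tested were called, and the median NMD share of the 16 genes at 10 TPM or more was 3.19%. SRSF6 had the highest share. Its poison exon transcript SRSF6 ENST00000483871 (chr20:43457928-43461334, plus strand, stop exon chr20:43459153-43459420) took 77.4%, 72.1% and 74.6% of SRSF6 in U2-OS and 73.6%, 71.0% and 75.9% in SK-Mel 24. In A549 it took 57.1%, 47.9% and 42.0%, below both lines with no overlap, and in U251 50.8%, 49.7% and 56.9% (adjusted p 0.0162, 2.09-fold, edgeR). TRA2B-206, which holds the poison exon of another splicing activator, ranged over lines from 25.1% ± 7.75 in BJ to 41.7% ± 2.88 in U251 and was not called (adjusted p 0.648). It was at 0%, 0% and 0.150% of TRA2B in HepG2.

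Among hnRNP genes, which include many splicing repressors, 4 of 12 were called, and the median share was 5.63%. HNRNPDL was called with 32.3%, 20.2% and 25.9% in Caco2 and 7.60%, 5.77% and 3.85% in A549, with no overlap (adjusted p 0.000214, edgeR). Its leading transcript HNRNPDL ENST00000349655 keeps the principal stop, followed by an intron. HNRNPA2B1 ENST00000360787, of the same class, took 17.4%, 16.0% and 20.4% in U251 and 6.75%, 11.3% and 8.90% in RT4, a 2.01-fold difference by counts (adjusted p 0.00140, edgeR). Of the other splicing regulators 4 of 21 were called. TARDBP, which encodes TDP-43, held 30.7% to 54.0% in NMD transcripts and RBM39 16.1% to 52.5%, and neither was called, although TARDBP passed the adjusted p (0.00305, 1.61-fold, edgeR). QKI, which encodes the Quaking protein, ran from 16.2% ± 5.10 in SK-Mel 24 to 47.6% ± 21.7 in Caco2 and was called (adjusted p 0.000363, edgeR), with 69.7%, 46.9% and 26.3% in the 3 Caco2 libraries. In each of these 3 lists, 3 of the 4 called genes were highest in Caco2, against 35.9% of all called genes. With the 5′-incomplete covariate 3 genes of each list were called, against 401 of 2951 over all genes tested. Counts this small do not set the lists apart from other genes.

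Ribosomal protein genes had a low median share, 0.307% over 34 genes, and 11 of 32 tested were called. RPL13-210 (chr16:89560682-89563473, plus strand) took 14.6%, 18.0% and 23.9% of RPL13 in U2-OS and 16.0%, 16.1% and 20.8% in BJ. It took 4.88%, 6.97% and 6.44% in SK-Mel 24, below both lines with no overlap (adjusted p 2.90e-05, 2.66-fold, edgeR). RPS9, of the small subunit, was highest in Caco2 at 45.4%, 27.7% and 35.2%, and lowest in A549 at 11.4%, 12.7% and 13.3%, but was no longer called with the 5′-incomplete share as a covariate (adjusted p 0.203). Respiratory chain genes had a median of 1.93%, with 7 of 34 called. Besides COX6C, the complex I subunit NDUFS7 held 54.1% to 90.3% in NMD transcripts and the complex III subunit UQCRC1 46.3% to 69.2%, with no call for either.

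DNA repair genes had 4 of 17 called, tRNA synthetases 1 of 9, polyamine genes 1 of 3 and amino acid response genes 0 of 3. The last count was 1 with the 5′-incomplete share as a covariate. RAD50, of the double-strand break sensor, was called with 70.1%, 59.7% and 64.9% in SK-Mel 28 and 18.3%, 24.6% and 52.6% in Caco2 (adjusted p 0.0380, edgeR), and was listed at 0% in all 3 HepG2 libraries, where the gene averaged 1.96 TPM. TARS, the threonyl-tRNA synthetase, held 29.4% to 45.9% in NMD transcripts, with an adjusted p of 0.00754 but a fold of 1.19, and was not called (edgeR). OAZ1, the ornithine decarboxylase antizyme, was called at low shares, from 0.186% ± 0.0482 in RT4 to 1.02% ± 0.143 in SK-Mel 28.

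The pathway's own genes were also compared. At gene level 20 of 24 NMD factors differed among the 8 lines (edgeR on gene counts, adjusted p under 0.05 and 2-fold), but 92.3% of all genes did, so the count is not above the background. DCP2, the decapping enzyme, had the widest range, 2.75 on the log2 scale by the fit. It was at 34.9 ± 1.51 TPM in U2-OS, 31.7 ± 11.3 in Caco2 and 4.41 ± 0.575 in BJ. UPF3B, which binds the exon junction complex, was at 27.9 ± 5.86 TPM in U251 and 6.61 ± 1.26 in BJ, and UPF2, its partner, at 31.0 ± 4.42 in U2-OS and 7.51 ± 1.38 in SK-Mel 24. By mean TPM UPF1, the central helicase, ran from 17.3 ± 1.30 TPM in A549 to 31.4 ± 3.86 in U251. SMG9, a regulator of the SMG1 kinase, had the narrowest range, 0.62 on the log2 scale, and DCP1A and GSPT1 also stayed under 2-fold. Of the factors' own NMD transcripts, 4 genes could be tested and 2 were called, neither of them with the 5′-incomplete covariate. MAGOHB, of the exon junction complex, was called with 31.3%, 9.13% and 30.3% in Caco2 and 4.82%, 5.14% and 5.95% in SK-Mel 24, with no overlap (adjusted p 0.0115, and 0.0855 with the covariate, edgeR).

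In HepG2, NMD transcripts with a lower share of their gene outnumbered those with a higher one. In a fit of all 27 libraries, 608 of 4118 NMD transcripts were at least 2-fold below each of the 8 other lines, or 14.8%, against 15.6% of all transcripts. A further 95 were above each of them, or 2.31%, against 2.98% of all. Both shares were close to those of transcripts in general.

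The 608 low members had a median length of 1537 bases and began a median of 275.5 bases from the 5′ end of their gene, while the 95 high members had 1004 bases and began 1362 bases in. High members ended a median of 58 bases from the gene's 3′ end and low members 1999.5 bases from it, and 47 of 95 high but 99 of 608 low members were annotated 5′-incomplete. Over all 4202 members tested in the 8 lines the medians were 1583 bases in length, 311.5 bases from the 5′ end and 1507.5 bases from the 3′ end, and 21.9% were 5′-incomplete. PDAP1 ENST00000426447 (49.2% to 68.5% of PDAP1 in the 24 other libraries), DNAJA2 ENST00000563158 (38.3% to 73.8%), GORASP2 ENST00000442798 (33.0% to 71.3%) and TOX4-205 (24.6% to 52.8%) were each listed at 0% in all 3 HepG2 libraries. Among the high members, RPS3-204 took 50.5%, 64.9% and 58.0% of RPS3 in HepG2 and at most 0.0918% elsewhere, and CALR-204, from the chaperone calreticulin, 51.5%, 61.2% and 54.5% against at most 0.457%. CRKL ENST00000411769 keeps the principal stop of an adaptor protein gene and took 61.4%, 78.0% and 72.1%, against at most 0.136%. These transcripts and 5′-incomplete transcripts in general were both high in the HepG2 libraries, and the part of the library measures in the HepG2 calls was not tested.

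**Figure D5:**
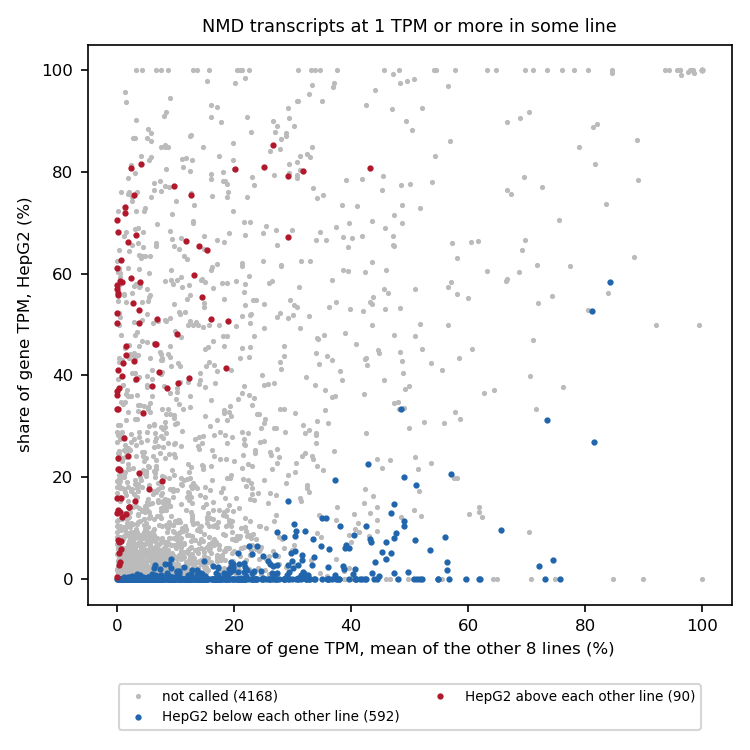
Share of gene TPM of each NMD transcript that reached 1 TPM in some line, as the mean of 8 lines (horizontal, %) and in HepG2 (vertical, %). Most blue points (HepG2 at least 2-fold below each other line) lie along the bottom edge, a few of them higher, red points (HepG2 above each other line) lie mostly toward the left, and grey points, not called or not tested, spread over the whole range.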

How the data were processed

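RNA-seq of 27 libraries, 3 from each of 9 cell lines, was analysed from the authors' deposited transcript tables. Base calling used CASAVA 1.8 and quantification kallisto 0.43.1 on GRCh38, per the submitters' processing notes. For the index's annotation release and the strand setting, nothing is given in the sources used here. Each deposited table gives effective length, the authors' estimated counts and TPM for 176241 transcripts. The estimated counts divide reads among overlapping transcripts of a gene, so shares of similar transcripts carry an error that the tables do not give.

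Transcript type, exons and coding ends came from GENCODE 29 by transcript identifier, and 159887 identifiers matched. Of the members, 13282 (98.4%) had the length in the table that GENCODE 29 gives. Mitochondrial genes were set aside from library shares. Shares are the TPM of NMD transcripts over the summed TPM of the library or of the parent gene.

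Usage was tested in R 4.3.3 with edgeR 4.0.16 (quasi-likelihood F test) on estimated counts rounded to whole numbers. The offset was the log of the gene's count plus 0.5. Genes needed a mean of 20 counts in each line and transcripts a mean of 5. P-values were adjusted over all transcripts tested, and folds used a floor of 3 counts per line. HepG2 entered only a 27-library fit. Gene levels used edgeR with TMM scaling. Alternatives used limma 3.58.1 and DESeq2 1.42.0.

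Named genes were the 12 NMD transcripts of highest mean TPM, line-high transcripts, and the 12 genes of widest range at 10 TPM or more. They also included 10 genes over 50% in every library, up to 4 genes of highest share per list, and the NMD factors of widest and narrowest range. Line-low and HepG2 transcripts were picked with their values in view. The members and lists were chosen with earlier results of these data known. All 27 pairs of replicate libraries differed beyond sampling noise (lowest chi-square per degree of freedom 5.91), so none was merged. Transcripts without a match to GENCODE 29 were given no type. A few items are not reported here.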

Additional observations from a re-analysis of the deposited data

How the results depend on the processing

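The NMD share of library TPM, 3.01% as the median of the 24 libraries, was 2.42% by estimated counts, 0.896% with support level 1 members only, 2.39% without the 12 most abundant members and 2.48% without 5′-incomplete members, and Caco2 was highest of the 8 lines in each. HepG2 was at 3.36%, 1.45%, 3.14% and 1.79% in these. The median gene share, 1.92% by the same summary, was 0.962% by estimated counts, 3.61% with support level 1 members only and 1.20% for genes of at least 20 TPM. The 609 transcripts called were 1568 with HepG2 included, 1196 with limma on log2 TPM ratios, 1199 with limma on the arcsine root of count shares, 1358 with DESeq2, 395 with the 5′-incomplete covariate and 378 without Caco2, RT4 and BJ. Over all transcripts the shares called were 31.7% with limma, 29.8% by the arcsine fit, 33.7% with DESeq2, 11.8% with the covariate and 10.4% without the 3 lines. Of the 609, 539 were called by all 4 tools. The 622 genes were 1345 with HepG2, 965 by the arcsine fit, 1018 with DESeq2, 401 with the covariate and 339 without those 3 lines, and 520 were called by all 4 tools. Over all sums of genes and types the shares called were 22.2% by the arcsine fit, 25.6% with DESeq2, 11.0% with the covariate and 8.88% without the 3 lines. The arcsine, covariate and 3-line fits and the one without 5′-incomplete members were chosen after seeing the data, and the cause of these shifts was not tested. Line-low calls went from 11 to 5 with a 4-fold margin. Leaving out 1 library at a time gave 512 to 679 transcripts, 530 to 713 genes, 0 to 1 line-high and 8 to 28 line-low transcripts, 19 to 21 NMD factors, 71 to 83 HepG2-high and 518 to 569 HepG2-low transcripts, a library share of 3.00% to 3.01% and a gene share of 1.91% to 1.93%. No paired analysis was possible because the labels number no replicates. Their P numbers, partly shared between lines, have no stated meaning, and as a covariate they gave 519 transcripts and 545 genes. For the fits with P numbers and with HepG2, the shares called over all transcript types were not counted. Shares of short or similar transcripts, and those at a few counts, are limited by how reads were divided among them.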
